A study of Schizosaccharomyces pombe with 21 samples.

Results

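The genes described here encode the proteins of the large subunit of the cytosolic ribosome of the fission yeast Schizosaccharomyces pombe. They were taken as the protein-coding genes whose standard symbol starts with rpl or rpp followed by a digit. Of 86 genes that matched this pattern, 83 were kept, out of 6988 gene identifiers in the count tables. The other three, rpp1, rpp21 and rpp40, are annotated as subunits of RNase P or RNase MRP and not of the ribosome, and were left out. The gene rpl701 was kept by its symbol, although its annotated product is an L7-like protein that is also called an RNase MRP subunit.

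PolyA RNA was sequenced in 21 libraries, 3 replicates in each of 7 groups. The quadruple mutant HASX (strain BS1453, h-) carries asp1-H397A::natMX and deletions of aps1 (kanMX), siw14 (hygMX) and spx1 (ura4MX), and was sampled after 1, 2 and 4 h in ePMGT(-PO4), a medium without phosphate. The wild type (strain Sp1, h-, labelled WT) was sampled in log phase in ePMGT(+PO4), called 0 h here, and after 1, 2 and 4 h in ePMGT(-PO4). All cells grew at 30 °C in vegetative growth, and each genotype is 1 strain. Of the genes altered in HASX, asp1, aps1 and siw14 act in the turnover of inositol pyrophosphates, small signalling molecules tied to phosphate status, while spx1 encodes a protein with an SPX domain, which binds such molecules. A HASX sample at 0 h was not analysed here, so in HASX the part of a level that was present before starvation cannot be told apart from the part that followed it. The labels call the replicates biological without saying more of how they were grown, so p-values measure the spread between these samples.

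Libraries held 11.24 M to 23.68 M counts. The gene siw14, deleted in HASX, was at 1.77 counts-per-million (CPM) in the lowest HASX 4 h library and at 69.6 CPM in the highest, which was replicate 3, against 241 to 257 CPM in the WT 4 h libraries. HASX 4 h replicate 3 therefore stood apart from its group in a gene that its label gives as deleted. It stood apart in asp1 too, with 306 CPM, against 83.5 and 83.4 CPM in the other HASX 4 h libraries and 74.8 to 96 CPM in WT 4 h; counts do not check the point mutation of this gene. Across genes, its group also had the lowest correlation between replicates, 0.893, whereas those of the other groups lay between 0.983 and 0.996. Each result that rests on HASX 4 h is given below also without that library where this changed it. The gene aps1 was at 3.2 to 15.3 CPM over all HASX libraries, against 156 to 215 CPM over all WT libraries. The gene called spx1 in the labels, pqr1 in the annotation, was at 43.3 to 99.6 CPM in HASX and at 232 to 343 CPM in WT. The marker ura4 had between 640 and 923 CPM in HASX and none in WT.

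Ribosomal proteins of the large subunit surround the peptidyl transferase centre and the exit tunnel, and a stalk of P0 with pairs of P1 and P2 proteins recruits the translation factors. Making them takes a large share of the messenger RNA of a growing yeast cell, and their genes are known to be turned down together when nutrients run short. In fission yeast many of these proteins are encoded by more than one gene. Their promoters are known for the HomolD box, which acts in place of a TATA box, and for the HomolE box, which lies next to it.

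By symbol, the 83 genes formed 46 protein families, of which 13 had a single gene, 29 had 2 genes and 4 had 3. The 70 genes with a paralog made 41 pairs, whose coding sequences were 66.1 to 99.6% identical, with a median of 85.5%. The exact letters of HomolD (CAGTCACA, searched on both strands) were found in 54 of 83 windows of 250 bases before to 50 bases after the annotated transcript start, which is 65.1%, against 2.68% of 5112 windows of the same length over all genes. Those of HomolE (ACCCT repeated once more without a gap, both strands) were in 20 of 83 windows, 24.1%, against 1.25% of all windows. Neither motif overlaps the other in its letters. Both were present in 13 genes and neither in 22. The matches lay at narrow distances: 54 of 57 HomolD matches began between 75 and 43 bases before the start, and 20 of 20 HomolE matches between 90 and 60 bases before it.

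The 120 bases before the transcript start are shown for 8 genes, 5′ to 3′ on the strand of the gene and with both motifs in capitals, because the results below turn on how paralogs of these proteins part from each other. Positions are those of RefSeq build ASM294v3, since the count tables hold no coordinates; the submitters' processing notes name ASM294v2. The gene rpl101 (chrIII:612580-612699, minus strand) is shown as a promoter with both boxes. The paralogs rpl1001 (chrII:2081361-2081480, plus strand) and rpl1002 (chrI:3744026-3744145, plus strand) encode protein L10. The paralogs rpl3001 (chrI:1974084-1974203, minus strand) and rpl3002 (chrI:5095880-5095999, minus strand) encode protein eL30. The acidic stalk protein P2 is encoded by rpp201 (chrII:3643041-3643160, plus strand), rpp202 (chrII:2128468-2128587, minus strand) and rpp203 (chrI:3868969-3869088, plus strand).
rpl101: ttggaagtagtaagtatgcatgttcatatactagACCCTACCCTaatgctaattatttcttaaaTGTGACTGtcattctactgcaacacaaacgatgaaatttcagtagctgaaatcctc
rpl1001: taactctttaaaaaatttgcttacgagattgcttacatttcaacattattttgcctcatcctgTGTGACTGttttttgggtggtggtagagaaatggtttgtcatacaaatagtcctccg
rpl1002: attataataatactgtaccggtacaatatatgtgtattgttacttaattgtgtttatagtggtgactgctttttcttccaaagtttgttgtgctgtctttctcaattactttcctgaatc
rpl3001: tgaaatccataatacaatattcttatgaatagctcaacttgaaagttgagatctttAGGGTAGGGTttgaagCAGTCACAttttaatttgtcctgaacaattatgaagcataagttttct
rpl3002: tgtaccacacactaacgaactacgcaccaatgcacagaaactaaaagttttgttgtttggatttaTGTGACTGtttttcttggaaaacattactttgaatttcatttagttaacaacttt
rpp201: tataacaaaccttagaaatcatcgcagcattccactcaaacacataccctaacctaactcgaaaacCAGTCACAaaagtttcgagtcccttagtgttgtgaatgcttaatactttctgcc
rpp202: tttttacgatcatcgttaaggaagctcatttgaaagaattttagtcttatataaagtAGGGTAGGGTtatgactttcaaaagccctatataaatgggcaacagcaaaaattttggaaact
rpp203: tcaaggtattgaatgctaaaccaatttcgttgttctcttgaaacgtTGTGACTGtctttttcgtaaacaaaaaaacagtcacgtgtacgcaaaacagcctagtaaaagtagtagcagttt
Exact HomolD letters stood in rpl1001 but not in rpl1002, in both L30 genes, and in rpp201 and rpp203 but not in rpp202, whose window had HomolE alone. Sequences that differ from the motif by even 1 base were not counted, and a match is a description of these letters and not of a bound site.

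**Figure D1:**
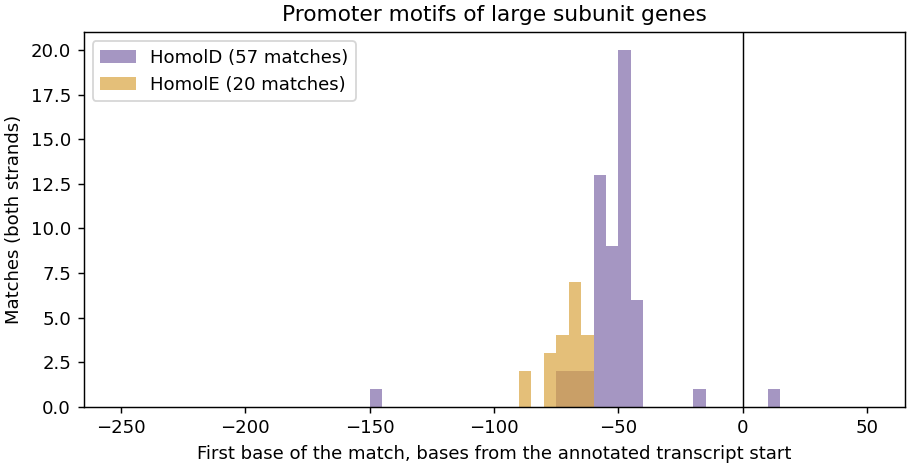
Distance in bases from the annotated transcript start to the first base of each HomolD and HomolE match (x axis) against the number of matches (y axis) in the 83 genes, both strands together. The HomolD matches pile up around a median of -51 bases and the HomolE matches around a median of -70 bases.

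The whole set fell after 4 h without phosphate in the wild type and was far lower in HASX from 1 h on. The 83 genes together took 1.56 ± 0.0737% of all counts in HASX 1 h, 1.27 ± 0.0777% in HASX 2 h and 0.782 ± 0.0448% in HASX 4 h (SD, n = 3 each). In WT they took 9.87 ± 0.05% at 0 h, 9.91 ± 0.36% at 1 h, 9.31 ± 0.307% at 2 h and 3.78 ± 0.198% at 4 h (SD, n = 3 each). The HASX libraries thus lay below the WT libraries at every shared time, with no overlap. In bulk RNA, fewer cells with a transcript and less transcript per cell cannot be told apart.

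**Figure D2:**
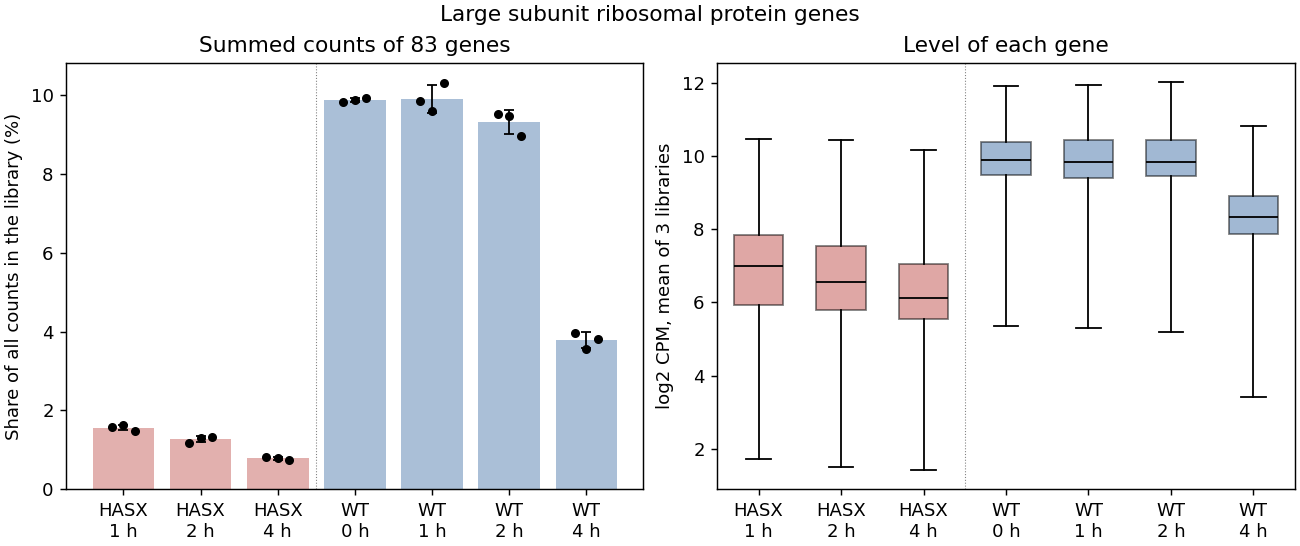
Left, share of all counts in a library taken by the 83 genes (percent, y axis) in each group (x axis); bars are means, error bars the SD and points the 3 libraries. Right, log2 of the mean CPM of each gene per group, with the box at the quartiles, the line at the median and whiskers at the extremes. The HASX groups lie between 0.782 and 1.56% and WT falls to 3.78% at 4 h.

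Levels per length of coding sequence spanned a wide range in WT 0 h. The highest were rpl4101 (7573 ± 833 CPM per kb), rpl39 (5000.0 ± 584), rpl8 (4899 ± 677) and rpl26 (4602 ± 706), for proteins L41, L39, eL8 and uL24. The lowest were rpl1201 (82.6 ± 14.7 CPM per kb), rpl1603 (178 ± 22.2), rpl3002 (364 ± 62.9) and rpp203 (505 ± 84.3), each a lesser copy in its family (SD, n = 3 each). The coding sequence of rpl4101 has 78 bases and that of rpl39 156, and counts from untranslated parts enter these values. That of rpl1201 is 99.6% identical to that of rpl1202, and how shared reads were counted is not given. The level of rpl1201 and its place as the lesser copy are therefore uncertain.

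Single genes were tested with edgeR's quasi-likelihood test over all 6234 genes that passed the filter on low counts, with Benjamini-Hochberg adjustment, and a gene was called at an adjusted p under 0.05. All 83 large subunit genes passed the filter. In WT 1 h against WT 0 h, no large subunit gene was called in either direction, where 5.02% of all genes were called lower and 4.27% higher; at an unadjusted p under 0.05 there were 3 lower and 0 higher, and DESeq2 called 0. In WT 2 h against WT 0 h, 2 were called lower, where 6.66% of all genes were, and none higher, where 10.9% of all genes were; at an unadjusted p under 0.05 there were 4 lower and 1 higher, and DESeq2 called 3 lower and 1 higher. The genes called lower were rpl1603, one of 3 genes for protein uL13, with a log2 fold change of -0.89 (SE 0.25, adjusted p = 0.02), and rpl22, named after its value was seen, with -0.25 (SE 0.08, adjusted p = 0.0451). These small counts depended on the libraries: when any 1 library was left out, 0 to 7 genes were lower at 2 h and 0 to 4 at 1 h, in both cases most without HASX 4 h replicate 3. Without WT 2 h replicate 3, 3 genes were higher at 2 h.

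In WT 4 h against WT 0 h, 83 of 83 were called lower, where 25.0% of all genes were, with a median log2 fold change of -1.54 against 0.01 over all genes tested. The fall came late: in WT 4 h against WT 2 h, 83 of 83 were again called lower (13.6% of all genes; median -1.52), and in WT 2 h against WT 1 h none was called in either direction (0.69% of all genes lower, 5.73% higher), where the unadjusted p was under 0.05 for 1 gene, which was higher, and DESeq2 called 0. The genes did not fall alike. The smallest falls in WT 4 h against WT 0 h belonged to rpl35A02 (-0.42, SE 0.13, adjusted p = 0.0125), rpl1001 (-0.75, SE 0.15) and rpl13 (-0.91, SE 0.14). The largest belonged to rpl1603 (-3.30, SE 0.27), rpl1002 (-2.19, SE 0.14) and rpp203 (-2.18, SE 0.21). The call of rpl35A02 was lost without WT 0 h replicate 3, with a log2 fold change of -0.31.

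For rpl1603, CPM were 9.86, 11.1 and 11.1 in WT 4 h, against 121, 100 and 96.2 in WT 0 h. The intermediate times lay between these groups, with 64.8 to 69.1 CPM at 1 h and 54.1 to 60.3 CPM at 2 h. The ranges of the 4 WT times did not overlap. Against WT 0 h, the difference at 1 h was not called (adjusted p = 0.109 by edgeR's quasi-likelihood test). The call at 2 h was lost in 4 of 28 alternatives. In HASX 1 h this gene had already the level of WT 4 h, with 11.3, 7.92 and 8.28 CPM. The gene apl1 lies over the whole of rpl1603 on the other strand and had 50.7 CPM in WT 4 h and 47.1 CPM in WT 0 h. The strand setting of the counting is not given in the sources used here, but the counts were kept apart by strand: non-coding genes of the opposite strand that cover the whole of rpl1002, rpl1801, rpl2702 or rpl902 had 0.114 to 2.1 CPM in WT 0 h, where these 4 genes had 767 to 1712 CPM.

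HASX had lower levels of every gene of the set at 1 and 2 h. In HASX 1 h against WT 1 h, 83 of 83 were called lower, where 37.8% of all genes were, with a median log2 fold change of -3.07 against -0.01 over all genes and a range of -5.58 to -0.86. In HASX 2 h against WT 2 h, 83 of 83 were called lower (39.3% of all genes), with a median of -3.34. In HASX 4 h against WT 4 h, with the wild type itself now lower, 78 were called lower (37.3% of all genes), 1 was called higher (38.3% of all genes) and 4 were not called, with a median of -2.20. The genes not called were rpl1603, rpl2301, rpl4101 and rpl4102. Without HASX 4 h replicate 3 the counts were again 78 and 1, and rpl1603 was then called lower (-0.60, adjusted p = 0.00831; 18 CPM in the library left out, 6.73 and 7.1 CPM in the others). With scaling by total count alone the median of all genes in this comparison was -0.43, against 0.05 with TMM scaling, and no large subunit gene was called higher.

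The largest differences at 1 h belonged to rpl3002, rpl35A01, rpp203 and rpl1502, each of them a gene with a paralog. The gene rpl3002, the lesser of the pair for protein eL30, had 2.38, 3.52 and 3.94 CPM in HASX 1 h, against 160, 146 and 162 CPM in WT 1 h. Every HASX value was below every WT value, for a log2 fold change of -5.58 (SE 0.21, adjusted p = 1.23e-14), and rpl3002 stayed the lowest at 2 h (-5.60) and 4 h (-3.66). The gene rpl35A01, for protein eL33, had 39.7, 45.6 and 37 CPM in HASX 1 h, against 1252, 1216 and 1252 CPM in WT 1 h (-4.93, SE 0.17). For rpp203 the log2 fold change was -4.88 (SE 0.24) and for rpl1502 it was -4.73 (SE 0.16).

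Some genes differed far less. The gene rpl1001 had 1310, 1481 and 1456 CPM in HASX 1 h, against 2541, 2554 and 2627 CPM in WT 1 h, for a log2 fold change of -0.86 (SE 0.15, adjusted p = 2.63e-05). The gene rpl4101, for the very short protein L41, had 281, 273 and 273 CPM in HASX 1 h, against 526, 465 and 607 CPM in WT 1 h (-0.95, SE 0.12). The gene rpl1901, for protein L19, differed by -1.25 (SE 0.12) and rpp202 by -1.38 (SE 0.13). These were the smallest of the 83 differences at 1 h, and for each of them the 3 HASX values still lay below the 3 WT values.

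**Figure D3:**
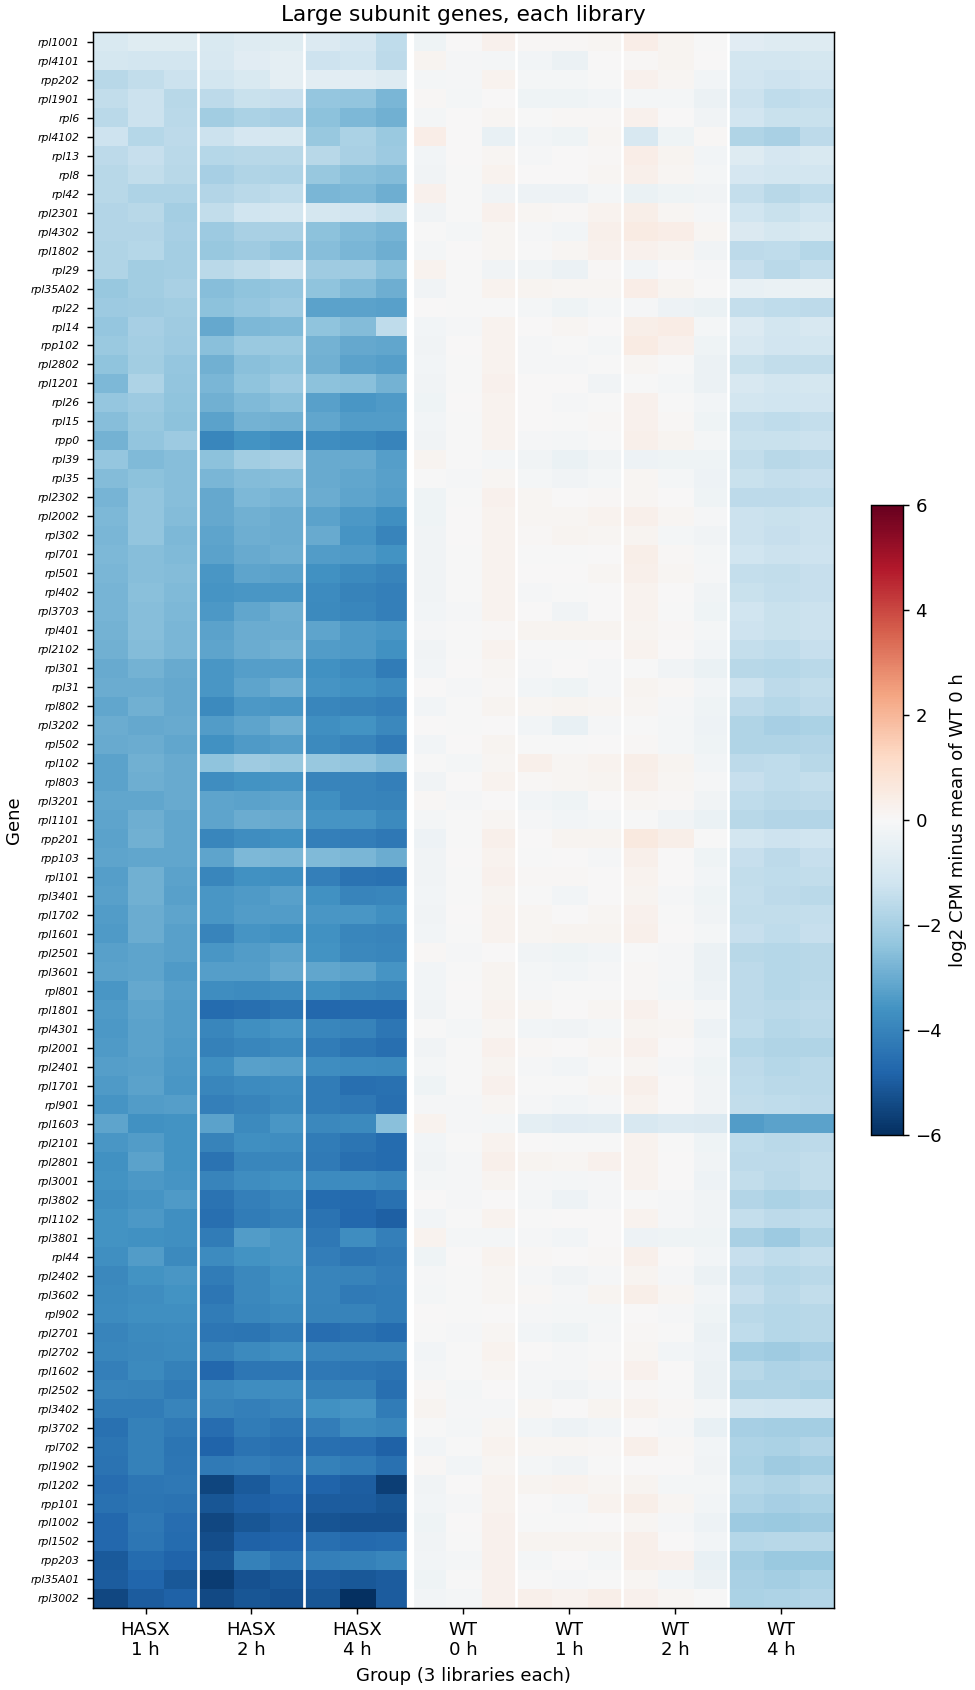
Log2 CPM of each of the 83 genes in each of 21 libraries (columns, 3 per group) minus the gene's mean in WT 0 h, sorted by the mean of HASX 1 h; blue is lower and red higher. The genes at the top, from rpl1001, keep pale colours in HASX, while the bottom rows, down to rpl3002, are dark from 1 h on.

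Levels in HASX after 1 h were mostly below those that the wild type reached at 4 h. For 75 of the 83 genes, every HASX 1 h library lay below every WT 4 h library, as did those of 40.5% of all genes tested; the exceptions were rpl1001, rpl1603, rpl1802, rpl1901, rpl4101, rpl4102, rpl42 and rpl6. The order of the genes was partly alike in the genotypes: the log2 fold changes of WT 4 h against WT 0 h and of HASX 1 h against WT 1 h, which share no library, had a Spearman correlation of 0.67 across the 83 genes. Genes are not independent replicates, and this value describes the set only.

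Within HASX, more genes of the set were called lower than higher in each step. In HASX 2 h against HASX 1 h, 34 were called lower (16.9% of all genes) and 6 higher (14.7% of all genes), with a median log2 fold change of -0.28. The largest falls were those of rpp0, for the stalk protein P0 (-1.31, SE 0.15, adjusted p = 2.62e-06), and rpl1801, for protein L18 (-1.22, SE 0.11). The genes called higher were rpl102 (0.78), rpp202 (0.62), rpl2301 (0.58), rpl29 (0.49), rpl4101 (0.36) and rpl39 (0.35). The count of lower genes was 17 when HASX 1 h replicate 2 was left out and 19 when HASX 2 h replicate 1 was left out, and reached 44 without HASX 1 h replicate 1. The count of higher genes was 3 without HASX 1 h replicate 2 or HASX 2 h replicate 3.

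In HASX 4 h against HASX 2 h, 45 were called lower (16.1% of all genes) and 3 higher (23.0% of all genes), with a median of -0.40. The largest falls were those of rpl42 (-1.16, SE 0.11), rpl1901 (-1.02, SE 0.12), rpl4102 (-1.01, SE 0.23) and rpl39 (-0.97, SE 0.13), each of which differed less than the median of the set in HASX 1 h against WT 1 h. The genes called higher were rpl14, rpl3702 and rpl1502. The rise of rpl14 (0.72, SE 0.22, adjusted p = 0.0151) rested on HASX 4 h replicate 3: its CPM were 83.1, 73.8 and 157 in HASX 4 h, against 52.5, 67.4 and 71.4 in HASX 2 h, and without that library the log2 fold change was 0.32 (adjusted p = 0.109). A protein-coding gene of the same strand covers 3.8% of rpl14 and had 225 CPM in HASX 4 h and 65.2 CPM in HASX 2 h. Whether its reads entered the counts of rpl14 was not tested. The call of rpl1502 (0.38, adjusted p = 0.0456) was lost in 15 of 28 alternatives. These counts also depended on the scaling, with 70 lower and 0 higher when libraries were scaled by total count alone. The TMM factors were 0.7393 to 0.8373 in HASX 4 h and 0.952 to 0.9996 in HASX 2 h. Scaling by total count alone therefore shifts every gene downward in this comparison. The share of all genes under that scaling is not given here, so the 70 does not set these genes apart from others. The count of higher genes was 0 without HASX 2 h replicate 1 and 5 without HASX 2 h replicate 3.

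The step from 2 to 4 h differed between the genotypes for most of the set. The wild type fell in this step by a median of 1.52 on the log2 scale and HASX, already low, by a median of 0.40. The interaction (the change in HASX minus the change in WT) was called positive for 75 of 83 genes, where 17.9% of all genes were, with a median of 1.17. It was largest for rpp203 (2.69, SE 0.31) and rpl1603 (2.68, SE 0.37; 2.05 without HASX 4 h replicate 3). For rpl42 and rpl1901 it was 0.09 (adjusted p = 0.682) and 0.21 (adjusted p = 0.348). In the step from 1 to 2 h the interaction was called negative for 18 genes (17.8% of all genes) and positive for 2 (11.5% of all genes), so that the share of negative calls was near that of all genes. The negative calls numbered 9 when WT 2 h replicate 1 was left out, 10 when HASX 2 h replicate 1 was left out and 35 when WT 2 h replicate 3 was left out. The positive calls were rpl102 (0.86, SE 0.17) and rpl2301 (0.58, SE 0.19), and their number was 1 when WT 1 h replicate 3 or WT 2 h replicate 2 was left out and 4 when HASX 2 h replicate 1 was.

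The stalk holds P0 at its base and the acidic proteins P1 and P2. The gene rpp0 had 402, 545 and 627 CPM in HASX 1 h and 186, 237 and 213 CPM in HASX 2 h, against 2679, 2582 and 2776 CPM in WT 1 h and 3506, 3202 and 2620 CPM in WT 2 h. It was lower in HASX at 1 h (-2.35, SE 0.15) and lower still at 2 h (-3.88, SE 0.16), and the interaction for this step was -1.52 (SE 0.21, adjusted p = 3.44e-05).

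Of the P1 genes, rpp101 had 19.5, 22.6 and 24.5 CPM in HASX 2 h, against 887, 744 and 626 CPM in WT 2 h, a log2 fold change of -5.08 (SE 0.14). The gene rpp102 had 100, 122 and 123 CPM in HASX 2 h, against 802, 676 and 471 CPM in WT 2 h (-2.49, SE 0.16), and rpp103 differed by -2.91 (SE 0.15). In WT 0 h, rpp101 was the highest of these by mean, at 697 ± 97.4 CPM, while in HASX 2 h it was the lowest, at 22.2 ± 2.51 CPM (SD, n = 3 each).

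Of the P2 genes, rpp202 was the least reduced. It had 231, 269 and 301 CPM in HASX 1 h, 341, 398 and 492 CPM in HASX 2 h and 471, 478 and 428 CPM in HASX 4 h. In WT 4 h it had 338, 316 and 328 CPM, below every HASX 4 h library. It was lower in HASX at 1 h (-1.38, SE 0.13, adjusted p = 9.86e-09) and at 2 h (-0.92, SE 0.13) but higher at 4 h (0.49, SE 0.13, adjusted p = 0.00215), the single gene of the 83 called higher there. The sign at 4 h held in every leave-one-out fit (0.46 to 0.57) but the call was lost with scaling by total count alone, where its log2 fold change was 0.00 and the median of all genes -0.43. In WT 4 h against WT 0 h it fell by 1.18 on the log2 scale. A protein-coding gene of the opposite strand covers 29.9% of rpp202 and had 63.5 CPM in HASX 4 h and 41.1 CPM in WT 4 h.

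Its paralog rpp203 had 9.19, 9.43 and 10.5 CPM in HASX 4 h, against 40, 35.3 and 35.7 CPM in WT 4 h (-1.93, SE 0.22), and rpp201 had 54, 51.7 and 46.8 CPM in HASX 4 h, against 439, 390 and 405 CPM in WT 4 h (-3.02, SE 0.16). All HASX values of both genes were below all WT values.

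**Figure D4:**
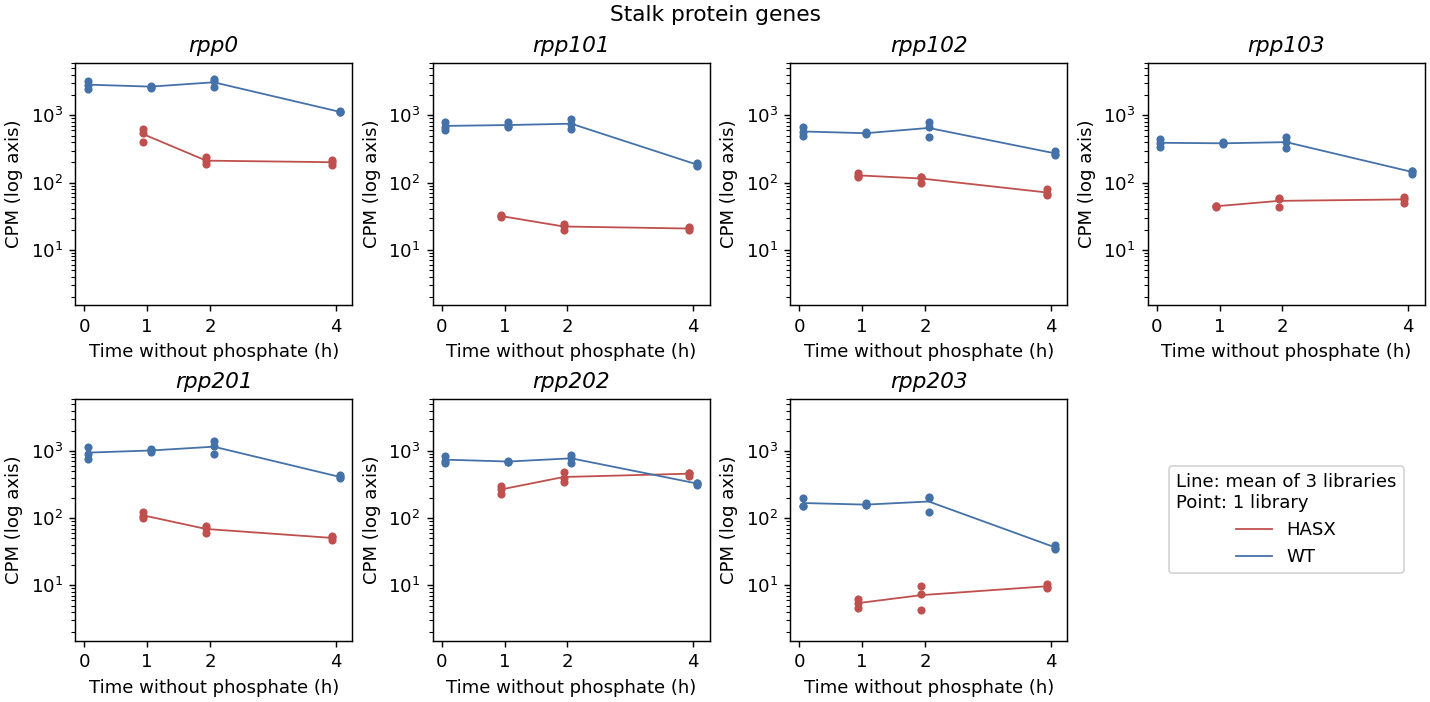
CPM (log axis) of the 7 stalk genes against time without phosphate (h) in HASX and WT; points are single libraries and lines the means of 3. The HASX points lie below the WT points at 1 and 2 h in all panels, and rpp202 is the panel in which HASX lies above WT at 4 h, at 428 to 478 CPM.

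Paralogs of one protein were compared by the log2 ratio of their counts within each library, which needs no scaling between libraries. HASX and WT were compared over 1, 2 and 4 h with an exact permutation test, two-sided, with genotypes exchanged within each time (8000 arrangements, smallest possible p 0.00025) and p-values adjusted over the 41 pairs. The ratio differed between HASX and WT in 34 of 41 pairs (35 before adjustment), and by at least 1 on the log2 scale in 19 of those called. Over all pairs the median absolute difference was 0.79. The call of rpl3702 over rpl3703 (-0.59, exact permutation adjusted p = 0.0464) was lost in 18 of 20 alternatives. By time, its difference was -1.43, -1.07 and 0.73 at 1, 2 and 4 h. For 4 h against 1 h, with times exchanged within each genotype, 9 of 41 pairs were called (400 arrangements, smallest possible p 0.005). This test takes the mean of the changes in WT and HASX, so moves in opposite directions cancel. The ratio of rpl101 to rpl102 changed by 0.27 in WT and -1.85 in HASX, and that of rpp201 to rpp203 by 0.80 and -1.95. Neither pair was called, so a pair not called may still have moved over time. Both permutation tests take libraries of different times as independent. The labels do not say whether the same cultures were sampled at several times. Reads that match both copies equally cannot be assigned by sequence, and how the counting treated them is not given in the sources used here, so ratios of the nearly identical pairs are uncertain.

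The largest difference was that of rpl1001 and rpl1002, whose protein L10 joins the subunit late, in the cytoplasm. Counts of rpl1001 were 1387, 1197 and 851 CPM in HASX 4 h and those of rpl1002 20.6, 20 and 19.6 CPM, while in WT 4 h rpl1001 had 1530, 1433 and 1446 and rpl1002 170, 160 and 173 CPM. The log2 ratio was 5.44, 6.08 and 5.80 in HASX at 1, 2 and 4 h. In WT it was 1.69 ± 0.00 at 0 h and 3.13 ± 0.06 at 4 h (SD, n = 3 each). HASX minus WT was 3.49 (exact permutation p = 0.00025, adjusted p = 0.000446). The coding sequences are 97.9% identical, with an unbroken identical run of 149 bases.

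Among the stalk genes, the ratio of rpp202 to rpp203 was higher in HASX by 3.21 and that of rpp201 to rpp202 lower by 2.81 (log2 difference -2.81), each at the smallest adjusted p of 0.000446 by the exact permutation test. The ratio of rpp201 to rpp202 was 0.33 in both WT 0 h and WT 4 h, with an SD of 0.14 and 0.04 (n = 3 each). In HASX it was -1.27, -2.56 and -3.17 at 1, 2 and 4 h, and it was also among the pairs called for 4 h against 1 h (-1.06, adjusted p = 0.0228 by the exact permutation test). The ratio of rpp101 to rpp102 differed by -2.07 between HASX and WT.

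Other pairs moved by more than 2 on the log2 scale. The ratio of rpl1901 to rpl1902 was 2.34 higher in HASX: rpl1901 had 365, 415 and 321 CPM in HASX 1 h, against 858, 863 and 901 CPM in WT 1 h, and rpl1902 had 34.1, 43.5 and 36 CPM in HASX 1 h, against 676, 640 and 718 CPM in WT 1 h. The ratio of rpl1201 to rpl1202 was 2.28 higher in HASX, but these coding sequences are 99.6% identical with an identical run of 485 bases, and rpl1201 had only 5.24 to 11.1 CPM in HASX. The ratio of rpl35A01 to rpl35A02 was -2.04 in HASX minus WT. It also moved within the wild type, to -1.33 ± 0.08 in WT 4 h, against 0.21 ± 0.04 in WT 0 h (SD, n = 3 each), and the libraries of these groups did not overlap.

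In the wild type most ratios moved little: for 28 of 41 pairs the mean log2 ratio changed by less than 0.5 in WT 4 h minus WT 0 h, although the libraries did not overlap in 33 pairs. With 3 libraries against 3 an exact test cannot go below a p of 0.1, so none is given for this step. Beside rpl35A, the largest changes were those of rpl1601 and rpl1602 over rpl1603 (1.85 and 1.53), of rpl1001 over rpl1002 (1.45) and of rpp202 over rpp203 (1.00). The more abundant copy was another gene in WT 4 h than in WT 0 h in 5 of 41 pairs, and in HASX 4 h than in WT 0 h in 10 of 41. Pairs at least 2-fold apart numbered 26 in HASX 4 h and 18 in WT 0 h.

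For 7 of the 41 pairs the mean difference over the 3 times was not called, which does not mean that the ratio was equal at each time. The pairs named in this paragraph were chosen after their values were seen. The ratio of rpl801 to rpl802, for the conserved protein uL2 next to the peptidyl transferase centre, differed by 0.02 between HASX and WT (exact permutation adjusted p = 0.788), while both genes were called lower in HASX: rpl801 had 169, 151 and 140 CPM in HASX 4 h, against 724, 642 and 691 CPM in WT 4 h. By time, HASX minus WT was -0.09, -0.11 and 0.25 at 1, 2 and 4 h, and the libraries did not overlap at 4 h. For rpl501 and rpl502, whose protein uL18 binds the smallest ribosomal RNA of the subunit, the difference was 0.05 (adjusted p = 0.446 by the same exact permutation test), made up of 0.36, -0.04 and -0.16 at 1, 2 and 4 h, with no overlap at 1 and 4 h. For rpl901 and rpl902 it was -0.06 (adjusted p = 0.481), and the difference changed sign: 0.31 at 1 h and -0.39 at 4 h, both with no overlap, and -0.10 at 2 h. For rpl4101 and rpl4102 it was 0.17 (adjusted p = 0.246), with 0.48, -0.09 and 0.11 at the 3 times and no overlap at 1 h. Among the pairs not called, the largest differences by time were those of rpp201 over rpp203, with 1.67, 0.61 and -1.09 at 1, 2 and 4 h. Their mean was 0.39 (exact permutation adjusted p = 0.246). For rpp102 over rpp103 the differences were 1.02, 0.44 and -0.58, with a mean of 0.29 (adjusted p = 0.132 by the same test). These p-values do not show that the copies respond alike.

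**Figure D5:**
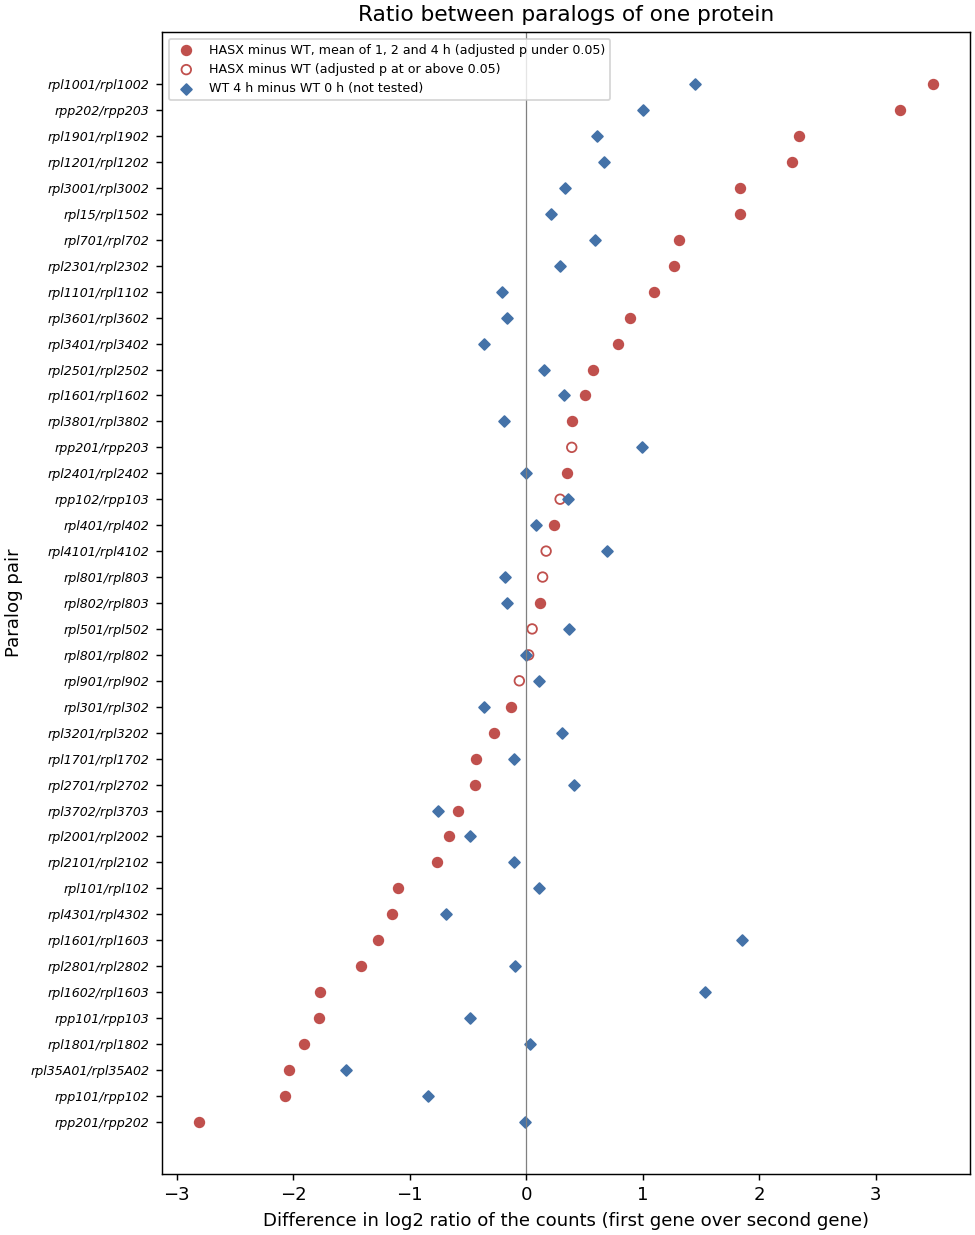
Difference in the log2 ratio of the counts of 2 paralogs (x axis) for 41 pairs (y axis): HASX minus WT, mean over 1, 2 and 4 h (circles, filled where the exact permutation test gave an adjusted p under 0.05), and WT 4 h minus WT 0 h (diamonds, not tested). The circles reach from -2.81 for rpp201/rpp202 to 3.49 for rpl1001/rpl1002, while most diamonds stay within 0.5 of 0.

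The copies of each protein were also summed. In WT 4 h against WT 0 h the log2 change of the 46 family sums had a median of -1.50 and ran from -1.86 (rpl38) to -0.91 (rpl13). In HASX 1 h against WT 1 h the median was -2.86, with rpl12 lowest (-4.26) and rpl41 highest (-1.05). In HASX 4 h against WT 4 h the median was -2.20, with a range of -3.07 for rpl12 to -0.25 for rpl41. A sum weights the larger copy. The coding sequences of the rpl12 pair are 99.6% identical, and how shared reads were counted is not given in the sources used here. The sums of rpl12 and its place as the lowest family are therefore uncertain.

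Genes grouped by promoter motif had similar medians in the wild type. In WT 4 h against WT 0 h the median log2 fold change was -1.54 in the 13 genes with both boxes, -1.55 in the 41 with HomolD only, -1.44 in the 7 with HomolE only and -1.63 in the 22 with neither. In HASX 1 h against WT 1 h the medians were -3.03, -3.11, -1.96 and -3.16 in the same order. The 7 genes with HomolE only ranged from -3.80 to -1.25 there, inside the range of -5.58 to -0.86 of the genes with HomolD only.

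Other ribosome genes were taken from lists by symbol. Of all genes tested, 25.0% were called lower and 26.5% higher in WT 4 h against WT 0 h, 37.8% and 36.4% in HASX 1 h against WT 1 h, and 37.3% and 38.3% in HASX 4 h against WT 4 h. The 55 small subunit genes had similar medians: 55 of 55 were called lower in WT 4 h against WT 0 h (median -1.45) and in HASX 1 h against WT 1 h (median -2.96), and in HASX 4 h against WT 4 h 53 were lower and 1 higher (median -2.05). Of 51 genes for assembly factors of the large subunit, 39 were lower and 4 higher in HASX 1 h against WT 1 h (median -1.39), and 18 lower and 10 higher in HASX 4 h against WT 4 h (median -0.04). In WT 4 h against WT 0 h, 45 of the 51 were lower (median -0.88). Of 31 genes for the mitochondrial large subunit, 14 were lower and 1 higher in WT 4 h against WT 0 h (median -0.26), and 24 lower and 1 higher in HASX 1 h against WT 1 h (median -0.73).

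The authors' deposited tables, which compare each starved group with WT 0 h, list all 83 genes with negative log2 fold changes in HASX, with medians of -3.02 at 1 h, -3.37 at 2 h and -3.65 at 4 h. All 83 were called lower there, where 35.8% of all genes were at 1 h, 37.4% at 2 h and 36.4% at 4 h. For WT, 1 of the 83 was called lower at 1 h (6.47% of all genes). At 2 h, 3 were called lower (11.2% of all genes) and 1 higher, and at 4 h all 83 were lower (26.8% of all genes). In the authors' deposited table for HASX 4 h the value nearest to 0 was that of rpp202, -0.57.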

How the data were processed

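Per the labels, a stranded kit was used to make libraries from polyA RNA, and both ends were sequenced. The authors deposited 2 tables of whole-number counts per gene, 1 for the wild type and 1 for HASX; the submitters' processing notes name HISAT2 2.1.0, SAMtools, HTSeq 0.10.0, DESeq2 and build ASM294v2, with no settings. The authors also deposited 6 tables against WT 0 h, which hold log2 fold changes and adjusted p-values per the file headers.

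Of 6988 identifiers, 6836 matched a locus tag of RefSeq build ASM294v3, 12 a synonym and 140 neither; names, families, overlaps, coding identity and promoters come from that build. Coding identity was taken in place of the planned protein identity. Families were formed from symbols and kept at an identity of at least 60%.

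Counts were analysed with edgeR 4.0.16 in R 4.3.3: filterByExpr (6234 genes kept, 754 removed), TMM, 1 mean per group over all 21 libraries (14 residual degrees of freedom, common biological coefficient of variation 0.212), quasi-likelihood tests for 12 comparisons, and Benjamini-Hochberg adjustment over all genes kept. CPM use TMM-scaled library sizes, and TMM takes most genes as unchanged. Paralog ratios are log2 of counts with 0.5 added, tested by exact permutation (SciPy 1.17.1). DESeq2 1.42.0 and the other alternatives appear in the closing section. On simulated counts for WT 4 h against WT 0 h (6234 genes, 200 changed), 26% of changes of 0.5 and 87% of changes of 1 on the log2 scale were recovered. In the same simulation 12 unchanged genes were called.

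Named with values were the genes with the lowest and highest fold changes in each comparison (6 each in WT 4 h against WT 0 h, 4 each in HASX against WT and in HASX 4 h against HASX 2 h, 2 each in the others), those called against the majority, the pairs with the largest changes or ratios, the stalk genes, the highest and lowest levels per kb and the engineered genes. Other genes and pairs, among them rpl22 and the pairs given as not called, were chosen after their values were seen. Members and lists were chosen with earlier results of these data known.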

Additional observations from a re-analysis of the deposited data

Results flagged for a closer look

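The change between times differed between HASX and WT in a test of the difference itself (edgeR's quasi-likelihood interaction, adjusted over all genes), which marks the following for a closer look. From 1 to 2 h, the change in HASX minus that in WT was called negative for 18 of the 83 large subunit genes, where 17.8% of all genes were, and positive for 2, where 11.5% were; the share of negative calls was thus near that of all genes. Among the named genes it was -1.52 for rpp0, -1.20 for rpl1801 and 0.86 for rpl102. For rpl1801, CPM were 69.2, 72.8 and 79.8 in HASX 2 h, against 160, 188 and 168 in HASX 1 h, while the WT libraries at these times spanned 1552 to 2002 CPM. For rpl102, CPM were 64.1, 77.7 and 71.3 in HASX 2 h, against 37, 46.1 and 41.2 in HASX 1 h.

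From 2 to 4 h, the interaction was called positive for 75 of the 83 genes, where 17.9% of all genes were, with 2.69 for rpp203 and 2.68 for rpl1603. In this step rpp203 had 9.19, 9.43 and 10.5 CPM in HASX 4 h, against 4.26, 9.73 and 7.46 CPM in HASX 2 h, while WT had 40, 35.3 and 35.7 CPM at 4 h, against 208, 199 and 123 CPM at 2 h. The value of rpl1603 was 2.05 without HASX 4 h replicate 3, the library with 18 CPM of this gene where its group's others had 6.73 and 7.1.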

How the results depend on the processing

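Counts of genes called lower stayed within 1.5 times in WT 4 h against WT 0 h and in HASX against WT at each time under every scaling, filter, tool and left-out library tried. Small counts moved. In WT 1 h against WT 0 h, 1 was lower with only the groups compared and 2 higher with total count only. In WT 2 h against WT 0 h, the lower count was 1 with DESeq2 size factors in edgeR, with no filter, with the replicate block and with only the groups compared, 8 with total count only and 0 where at least 2-fold was asked; 1 was higher with DESeq2. In HASX 4 h against WT 4 h, 0 were higher with total count only and at 2-fold. In WT 2 h against WT 1 h, 4 were lower with total count only and 2 with only the groups compared. In HASX 2 h against HASX 1 h, 2 were lower and 0 higher at 2-fold, and 3 higher with total count only. In HASX 4 h against HASX 2 h, 70 were lower with total count only and 3 at 2-fold, and 0 were higher with total count only, with only the groups compared and at 2-fold. For the interaction from 1 to 2 h, 29 were lower with total count only, and 2 lower and 0 higher at 2-fold. The cause was not tested. Shares of all genes called under these alternatives, or with a library left out, are not given here. The counts that moved therefore do not set these genes apart from others.

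Leaving out each library in turn gave, in WT 1 h against WT 0 h, 0 to 4 lower; in WT 2 h against WT 0 h, 0 to 7 lower and 0 to 3 higher; in WT 4 h against WT 0 h, 82 to 83 lower; in HASX 4 h against WT 4 h, 77 to 78 lower; in WT 2 h against WT 1 h, 0 to 2 higher; in HASX 2 h against HASX 1 h, 17 to 44 lower and 3 to 8 higher; in HASX 4 h against HASX 2 h, 36 to 51 lower and 0 to 5 higher; for the interaction from 1 to 2 h, 9 to 35 lower and 1 to 4 higher, and from 2 to 4 h, 71 to 79 higher; and 32 to 34 paralog pairs called for HASX against WT and 9 to 10 for 4 h against 1 h.

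The replicate numbers gave no sign of pairing the samples, which does not show that none existed. Deviations of same-numbered libraries of different groups correlated between -0.66 and 0.42 over 63 pairs of libraries, with 10 over 0.1. Those of different-numbered libraries correlated between -0.42 and 0.66 over 126 pairs, with 21 over 0.1. With the replicate block, 0 of 41 paralog pairs were called for 4 h against 1 h, and 1 gene was lower in WT 2 h against WT 0 h. For the pairs, the block leaves fewer arrangements, which raises the smallest possible p but does not by itself fix the count at 0. No called direction of a named gene or pair reversed under these alternatives. How reads shared by near-identical paralogs were counted is not given in the sources used here, HASX at 0 h was not analysed, and total RNA per cell was not measured.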
